A study of Mus musculus with 20 samples.

Results

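The 10 genes described here belong to the growth hormone and insulin-like growth factor (IGF) axis of the liver. They are the growth hormone receptor Ghr, the signalling factor Stat5b, the feedback inhibitors Socs2 and Cish, the repressor Bcl6, the secreted growth factor Igf1, its carrier Igfals and the binding proteins Igfbp1, Igfbp2 and Igfbp4. They were found by gene symbol and are 10 of the 55421 genes in the table. All 10 were among the 22867 genes with at least 10 counts over all libraries, which were tested. RNA-seq was performed on whole liver from 20 mice in 4 groups of 5, to follow the transcriptome after loss of HIRA, which places the histone H3.3 into chromatin. All mice were wildtype C57BL/6 animals labelled female, injected with AAV8 at 6 months of age. Livers were taken 3 weeks or 6 months after injection.

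The AAV8 vector of every group carried saCas9 under the Tbg promoter, which is active in hepatocytes, and a guide RNA expressed from the U6 promoter. The guide was directed against Hira in 5 mice at 3 weeks and 5 mice at 6 months, and against Rosa26, a site used as a neutral target, in the other 5 mice at each time. The control livers therefore also received the virus and the nuclease, and there was no group without them. Hepatocytes are the edited cells, while the RNA came from the whole tissue. In such bulk RNA, fewer cells of a type and less RNA per cell cannot be told apart. The text of the study names male mice for this time course, whereas its figure legend and the labels name female mice.

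Growth hormone binds GHR on hepatocytes, and the bound kinase JAK2 phosphorylates STAT5B, which enters the nucleus and activates Igf1, Igfals, Socs2 and Cish. SOCS2 and CIS (the product of Cish) return to the receptor and dampen the signal, and BCL6 represses many STAT5 targets by occupying the same sites. Liver-derived IGF1 circulates bound to binding proteins and to the acid-labile subunit encoded by Igfals, and its binding protein Igfbp1 is switched off by insulin through FOXO1. Because males and females release growth hormone in different patterns, this axis also sets most sex differences of the mouse liver.

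Library totals ranged from 19916430 to 24079736 counts. The hepatocyte markers Alb, Ttr, Apoa1, Trf, Serpina1c, Cps1 and Hnf4a were present in every group, and their summed level was 97659 to 187000 counts per 1000000 (CPM) per library. Hira, the targeted gene, had 6.04 to 8.54 CPM with Rosa26 and 4.15 to 5.95 CPM with its own guide at 3 weeks, and 4.82 to 7.32 and 4.96 to 6.51 CPM at 6 months, where the highest HIRA value was that of replicate 5 and the other 4 livers had 4.96 to 5.64 CPM. The log2 fold changes were -0.48 and -0.10, neither past the test (edgeR adjusted p = 0.197 and 0.794). A small insertion or deletion need not lower the transcript, so this level is a weak check of the labels. The library labelled HIRA 6 months replicate 5 went against its sex label. It had 2041 counts over the Y-linked genes Ddx3y, Eif2s3y, Kdm5d and Uty, against 0 to 13 in each of the other 19 libraries, and 9 counts of Xist against 6286 to 8436. The male-biased gene Cyp4a12a had 5045 counts in it and 0 to 5 counts elsewhere. The tests of the members were therefore also made without it.

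Sites at which STAT5 and BCL6 can compete are known as TTCNNNGAA, and FOXO factors favour AAACAAA, so both were searched on both strands of RefSeq promoter windows (GRCm38.p6), which run from 250 bases before to 50 bases after a start site. Such windows were found for 9 of the 10 genes, all but Socs2. These genes had 15 windows, so 1 gene can have several, whereas the shares given here are per window. The letters TTCNNNGAA occurred in 8.3% of all 32851 windows and at least 2 times in 0.457% of them. Cish, Bcl6 and Igfals held them, and the following stretches are shown because Cish and Bcl6 had the strongest correlation, a negative one, among the 6 pairs compared over all 20 livers, and Igfals and Igfbp1 as a STAT5 and a FOXO target. Capitals mark the matches, and each stretch is written on the strand of its gene.
Cish, chr9:107296659-107296688: TTCCTGGAAagTTCTTGGAAatctgtcaaa
Bcl6, chr16:23981433-23981462: caggccgcggcTTCCTGGAAagttacttct
Bcl6, chr16:23981387-23981416: gggcaggagtgTTCTGTGAAatccttagag
Bcl6, chr16:23981353-23981382: gatcgactacgTTCCGGGAAtgagagggct
Bcl6, chr16:23988952-23988981: tagcaaattagTTCTCAGAAttccagaggc
Igfals, chr17:24877597-24877626: cgatctataatTTCTCAGAAaagaggctga
Igfals, chr17:24878162-24878191: tctgccaggtgTTCCTAGAAgaggccctgg
Igfbp1, chr11:7197669-7197698: agctcacaagcaAAACAAActtattttgaa
The pair of matches in Cish began at bases 1 and 12 counted from the start site of its window. That start site lies inside the gene as annotated (chr9:107296026-107302784). The Igfals windows also lie inside their annotated gene (chr17:24865997-24882010). The first 3 matches of Bcl6 fell within the window of a downstream start site, and 3 or more matches were present in 0.0335% of all windows. The FOXO letters of Igfbp1, 106 bases before its start, were present in 9.82% of all windows, and also in those of Igfbp2 and Stat5b. A match of letters describes the sequence and does not show that a factor binds there.

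Levels were compared per transcript length. The mean level over the 20 libraries, in the fragments per kilobase and 1000000 reads (FPKM) that the authors deposited, was 519 for Igfbp4, 322 for Igfbp2, 321 for Igf1, 147 for Ghr, 81.7 for Igfbp1 and 72.6 for Igfals. The intracellular members were lower, at 12.8 for Stat5b, 12.3 for Socs2, 6.08 for Cish and 4.35 for Bcl6. Several neighbours in this order were not separated within a group. The libraries of Igfbp4 and Igfbp2 overlapped at 3 weeks with either guide, as did those of Stat5b and Socs2 in each of the 4 groups. Igfbp1 reached down into the range of the intracellular members in HIRA livers, overlapping Socs2 at 3 weeks and Stat5b at 6 months, where its lowest library was replicate 5 (6.18 FPKM). The order also changed between groups. Igfbp2 stood ahead of Igf1 at 3 weeks with both guides, with overlap in Rosa26 livers, and behind it at 6 months in Rosa26 livers. In HIRA livers at 6 months both had a mean of 282.6 FPKM, and without replicate 5 Igfbp2 had 304 and Igf1 268 FPKM. Bcl6 stood last at 3 weeks. At 6 months it was ahead of Cish in Rosa26 livers, with overlap, and in HIRA livers only through replicate 5 (21.4 FPKM of Bcl6, 1.08 of Cish), since the other 4 livers had means of 3.04 FPKM for Bcl6 and 6.04 FPKM for Cish.

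**Figure D1:**
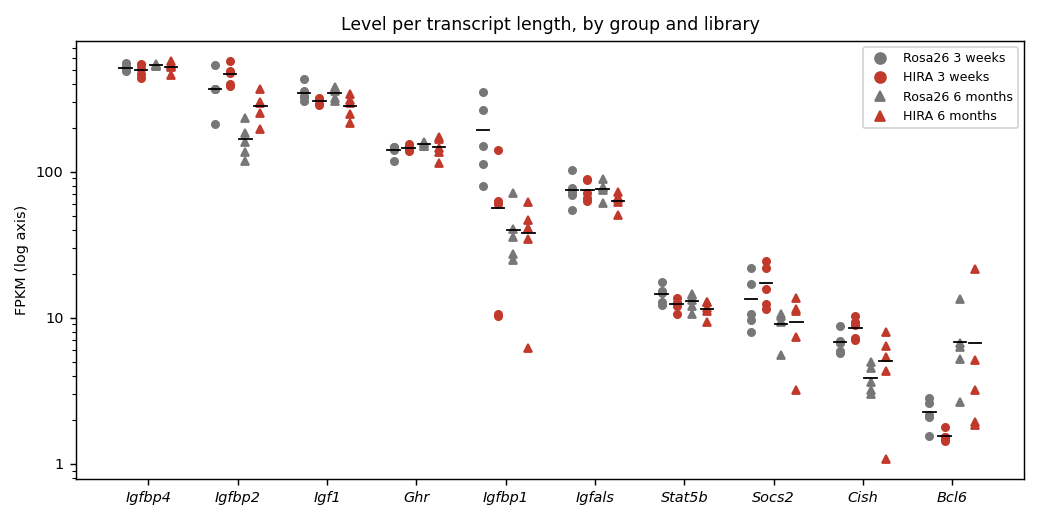
Level per transcript length (FPKM, log axis) of the 10 genes in each of the 20 libraries, ordered by their mean. Points are libraries (circles 3 weeks, triangles 6 months, grey Rosa26, red HIRA) and black lines are group means; Igfbp4 leads at a mean of 519 and Bcl6 is last at 4.35.

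The members also differed in how steady they were from liver to liver. On the log2 CPM scale, the SD over the 20 libraries was 0.13 for Igfbp4 and 0.21 for both Ghr and Stat5b, against 0.65 for Igfbp2, 0.66 for Socs2, 0.79 for Cish, 1.03 for Bcl6 and 1.48 for Igfbp1. Without HIRA 6 months replicate 5 it was 0.50 for Cish, 0.56 for Socs2, 0.66 for Igfbp2, 0.83 for Bcl6 and 1.36 for Igfbp1, and 0.13 to 0.27 for the other 5 members.

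**Figure D2:**
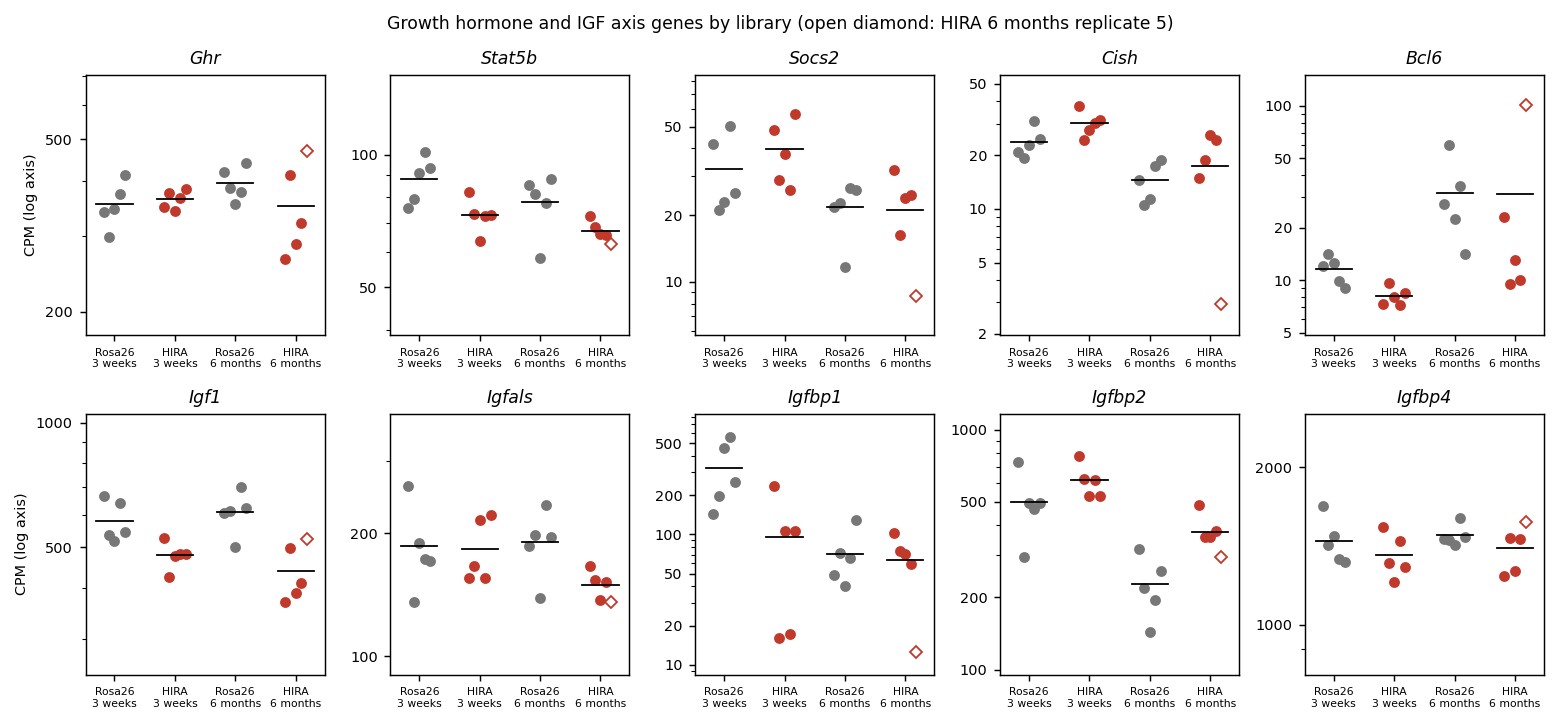
CPM (log axis) of each gene in the 20 libraries by group. Points are libraries, black lines are arithmetic group means, and the open diamond is the library labelled HIRA 6 months replicate 5, the highest of 20 for Bcl6 and Ghr and the lowest of 20 for Cish, Socs2 and Igfbp1.

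At 3 weeks, no member passed the test for the Hira guide. None of the 10 had an adjusted p under 0.05 with edgeR or with DESeq2, the tool of the study, in a comparison in which 0.197% of all genes did, and none had groups that did not overlap, as 2.69% of all genes had. Without adjustment, Igf1, Igfbp1 and Stat5b were under 0.05 with both tools, all lower with the Hira guide, where 8.87% of all genes were under it with edgeR. The median log2 fold change of the members was -0.06, and that of all genes was -0.01.

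At 6 months, Igf1 fell with the Hira guide and was the only member to do so at an adjusted p of 0.05, a threshold that 0.612% of all genes passed in that direction and 1.31% in either. No member also exceeded a log2 fold change of 1 in size, as 0.332% of all genes did, and no member had groups that did not overlap, where 3.15% of all genes did. The median log2 fold change was -0.12 over the members, 8 of which were negative, and 0.03 over all genes, 45.7% of which were negative. When the library labelled HIRA 6 months replicate 5 was left out, Igf1 and Bcl6 passed (background 1.74% of all genes), and Igf1 and Igfbp2 did not overlap (background 5.72%). In that fit 6 of the 10 members and 46.5% of all genes were negative.

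**Figure D3:**
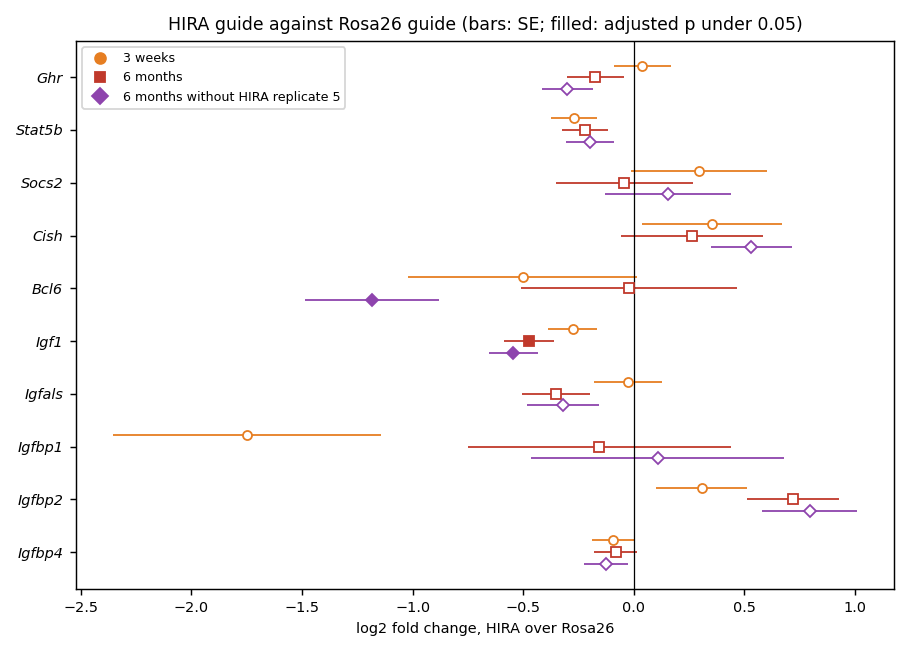
Log2 fold change of the HIRA over the Rosa26 guide for each gene at 3 weeks, at 6 months, and at 6 months without HIRA replicate 5. Bars are the SE, and filled symbols have an adjusted p under 0.05; these are Igf1 at 6 months (-0.47), and Igf1 (-0.54) and Bcl6 (-1.18) without that library.

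Between 3 weeks and 6 months in the Rosa26 controls, Igfbp2 fell. It was the only member past both thresholds, as were 0.162% of all genes, and the only one at an adjusted p of 0.05, where 0.324% of all genes passed. The groups did not overlap for Bcl6, Cish and Igfbp1, against 3.5% of all genes. In HIRA livers no member passed with edgeR between the same times, where 0.0656% of all genes passed. Without adjustment 4 members were under 0.05 (Bcl6, Cish, Igfbp2 and Socs2), where 8.95% of all genes were, and Bcl6 passed with DESeq2. When HIRA 6 months replicate 5 was left out of the fit, Bcl6 also passed in Rosa26 livers (background 0.938% of all genes). Both guide comparisons share their control livers with the time comparison of the Rosa26 group, so they are not independent of it. Genes of the daily clock moved in the time comparison of the controls too, with 4 of 9 evening genes higher at 6 months (Dbp, Nr1d2, Per3 and Tef, by 1.02 to 4.40 on the log2 scale). The labels give no time of day, and the part of the clock in these results was not tested.

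**Figure D4:**
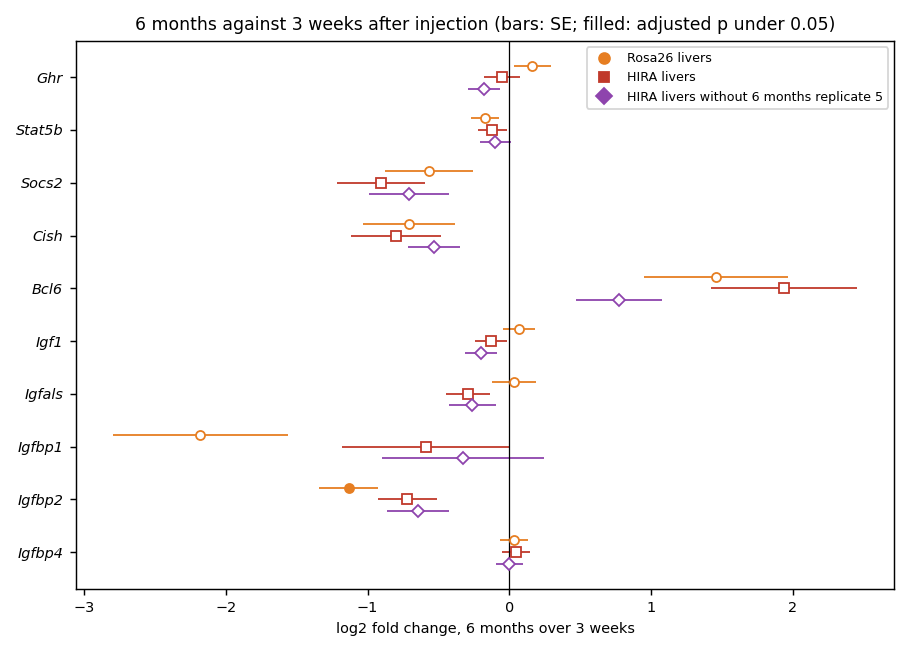
Log2 fold change of 6 months over 3 weeks after injection for each gene in Rosa26 livers, in HIRA livers, and in HIRA livers without the 6-month replicate 5. Bars are the SE and the filled symbol marks the adjusted p under 0.05, which is Igfbp2 in Rosa26 livers (-1.13).

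Ghr, the entry point of the hormone, lies at chr15:3317760-3583492. In order of replicate 1 to 5, the 3-week Rosa26 livers had 340, 298, 345, 374 and 413 CPM and the HIRA livers 350, 375, 343, 367 and 384 CPM. At 6 months it had 420, 385, 355, 378 and 440 CPM with Rosa26 and 265, 413, 287, 321 and 470 CPM with HIRA. The HIRA livers at 6 months spread more widely than any other group, and 3 of the 5 lay under every Rosa26 liver. The log2 fold change with the Hira guide was 0.04 ± 0.13 (SE) at 3 weeks and -0.17 ± 0.13 at 6 months (edgeR adjusted p = 0.974 and 0.565), and -0.30 ± 0.12 at 6 months without HIRA replicate 5 (adjusted p = 0.176).

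Stat5b (chr11:100780731-100850724) encodes the transcription factor that carries the signal to the nucleus. Its mean was 88.1 ± 10.5 CPM (SD, n = 5) with Rosa26 and 73.0 ± 6.60 CPM with HIRA at 3 weeks, and 78.2 ± 11.8 and 67.1 ± 3.75 CPM at 6 months. The HIRA mean was the lower at both times, and the groups overlapped at both. The log2 fold changes were -0.27 ± 0.10 (SE, edgeR adjusted p = 0.406) and -0.22 ± 0.10 (adjusted p = 0.303).

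Socs2, a feedback inhibitor of the receptor, lies at chr10:95385362-95417180. Its CPM in replicates 1 to 5 were 41.9, 21.0, 22.9, 50.04 and 25.2 with Rosa26 and 48.3, 28.6, 37.7, 25.9 and 57.1 with HIRA at 3 weeks. The 6-month values were 21.8, 22.7, 11.7, 26.5 and 26.0 with Rosa26 and 31.8, 16.2, 23.97, 24.6 and 8.64 with HIRA. The livers of each group were widely spread, HIRA replicate 5 at 6 months was the lowest of all 20, and the groups overlapped at both times. The guide comparison gave 0.29 ± 0.31 (SE) at 3 weeks and -0.04 ± 0.31 at 6 months on the log2 scale (edgeR adjusted p = 0.871 and 0.971), which turned to 0.15 ± 0.28 without HIRA replicate 5. The log2 fold change of 6 months over 3 weeks was -0.57 ± 0.31 in Rosa26 and -0.91 ± 0.31 in HIRA livers, and neither passed (adjusted p = 0.471 and 0.364).

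Cish (chr9:107296026-107302784) is a STAT5 target that, like Socs2, reports recent hormone signalling. At 3 weeks it had 20.9, 19.2, 22.7, 31.0 and 24.5 CPM with Rosa26 and 37.6, 24.3, 27.7, 30.3 and 31.5 CPM with HIRA. The 6-month livers had 14.5, 10.5, 11.4, 17.4 and 18.7 CPM with Rosa26 and 14.9, 18.9, 25.8, 24.3 and 2.95 CPM with HIRA. The HIRA livers tended to the upper end at both times except replicate 5 at 6 months, and the groups overlapped. The log2 fold change with the Hira guide was 0.36 ± 0.32 (SE, edgeR adjusted p = 0.844) at 3 weeks and 0.26 ± 0.32 (adjusted p = 0.763) at 6 months, and 0.53 ± 0.18 (adjusted p = 0.138) without that library. Between times, every 6-month Rosa26 liver was below every 3-week Rosa26 liver. The log2 fold change was -0.71 ± 0.32 and did not pass (edgeR adjusted p = 0.357, and 0.0559 without HIRA 6 months replicate 5). Opposite to Cish, Gm17040 overlaps 261 of its exonic bases. Whether the counts used strand is not stated, and Gm17040 had 0.92% as many counts as Cish.

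Bcl6, the repressor of many STAT5 targets, lies at chr16:23965052-23988852. It had 12.2, 14.1, 12.5, 9.87 and 9.07 CPM with Rosa26 and 7.33, 9.65, 7.98, 7.27 and 8.49 CPM with HIRA at 3 weeks. At 6 months the values were 27.4, 59.6, 22.4, 34.8 and 14.2 CPM with Rosa26 and 23.0, 9.52, 13.1, 10.0 and 101 CPM with HIRA. Every control liver at 6 months was above every control liver at 3 weeks, whereas among the HIRA livers at 6 months replicate 5 was the highest of all 20 and 3 of the others were below every 6-month control. In Rosa26 livers the time difference was 1.46 ± 0.51 (SE) on the log2 scale, a 2.74-fold ratio, with an edgeR adjusted p of 0.205, which became 0.0204, at an SE of 0.29, without HIRA replicate 5. The guide comparison at 6 months was -0.02 ± 0.49 with all libraries (adjusted p = 1) and -1.18 ± 0.30 without replicate 5 (adjusted p = 0.0493), so this 1 library decided the call. At 3 weeks it was -0.50 ± 0.52 (adjusted p = 0.871). Between times in HIRA livers, Bcl6 differed by 1.94 ± 0.52 (adjusted p = 0.187, DESeq2 adjusted p = 0.0431) and by 0.77 ± 0.31 (adjusted p = 0.381) without replicate 5.

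Igf1 encodes the growth factor that mediates much of the hormone's action, and lies at chr10:87858265-87937042. At 3 weeks it had 665, 535, 517, 638 and 545 CPM with Rosa26 and 527, 425, 478, 483 and 482 CPM with HIRA. At 6 months it had 606, 613, 500.4, 700 and 621 CPM with Rosa26 and 370.1, 499, 388, 410.4 and 524 CPM with HIRA. At 3 weeks the groups overlapped only through HIRA replicate 1 and the lowest control. At 6 months they overlapped only through HIRA replicate 5 and Rosa26 replicate 3, and without replicate 5 every HIRA liver was below every control.

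The 6-month mean of Igf1 was 608 ± 71.1 CPM (SD, n = 5) with Rosa26 and 438 ± 68.9 CPM with HIRA, a log2 fold change of -0.47 ± 0.11 (SE), or 0.721 of the control level (edgeR adjusted p = 0.0388). It was -0.54 ± 0.11 without replicate 5 (adjusted p = 0.0187). The direction was kept in each of 20 fits that left out 1 library, from -0.54 to -0.42, but the adjusted p rose above 0.05, to 0.135 at most, in 8 of them. These left out HIRA 3 weeks replicate 4, Rosa26 6 months replicate 1, 2, 4 or 5, or HIRA 6 months replicate 1, 3 or 4. The call was also lost without the count filter (edgeR adjusted p = 0.0509) and with the libraries of the contrast alone (-0.48 ± 0.13, edgeR adjusted p = 0.166). On log2(FPKM + 1) with limma it was lost too (-0.31 ± 0.11, adjusted p = 0.158). It was kept with DESeq2 (adjusted p = 0.00176) and with RLE scaling (edgeR adjusted p = 0.0358). At 3 weeks the log2 fold change was -0.28 ± 0.11 (adjusted p = 0.463), and the difference between both times was not past the test (interaction -0.20 ± 0.16, adjusted p = 0.876). Between times in the controls it was 0.07 ± 0.11 (adjusted p = 0.862). The summed hepatocyte markers at 6 months were 97659 to 140300 CPM in Rosa26 and 121350 to 161830 CPM in HIRA livers. Alb made up most of this sum, with medians of 82344 and 109900 CPM. Medians of the others were 4922 and 5604 CPM for Ttr, 6091 and 6444 for Apoa1, and 22394 and 22965 for Trf. They were 1431.5 and 1388 CPM for Serpina1c, 2081 and 1835 for Cps1, and 623.9 and 624.4 for Hnf4a. None of the 38 hepatocyte, biliary, stellate, macrophage, endothelial and lymphocyte markers passed the test at 6 months. The sums in these groups were 60.8 to 123 and 47.1 to 156 CPM for biliary, 195 to 351 and 206 to 847 CPM for stellate, 145 to 1001 and 84.0 to 614 CPM for macrophage, 120.04 to 202 and 147 to 232 CPM for endothelial and 7.78 to 26.4 and 7.42 to 35.1 CPM for lymphocyte markers, with no marker at 0 in every library. The log2 fold changes were positive for 7 of 7 stellate, 6 of 6 endothelial, 6 of 6 lymphocyte, 5 of 6 biliary and 2 of 6 macrophage markers (medians 0.51, 0.33, 0.45, 0.29 and -0.11). Replicate 5 was the lowest HIRA liver in each of these 5 sums. The other 4 HIRA livers had 85.6 to 156 CPM of biliary, 324 to 847 CPM of stellate, 246 to 614 CPM of macrophage, 177 to 232 CPM of endothelial and 14.6 to 35.1 CPM of lymphocyte markers, all overlapping the controls. Without replicate 5 the markers were positive for 7 of 7 stellate, 6 of 6 endothelial, 6 of 6 lymphocyte, 6 of 6 biliary and 4 of 6 macrophage genes (medians 0.65, 0.44, 0.65, 0.47 and 0.14), with none past the test. The median lymphocyte sum was 11.4 CPM with Rosa26 and 25.8 CPM with HIRA. The part of these cells in the result was not tested.

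Igfals (chr17:24865997-24882010), which builds the long-lived circulating complex of IGF1, had similar means at 3 weeks, 186 ± 46.1 CPM (SD, n = 5) with Rosa26 and 183 ± 33.0 CPM with HIRA. At 6 months it had 186, 198, 139, 234 and 196 CPM with Rosa26 and 167, 154, 137, 152 and 136 CPM with HIRA. The HIRA livers sat at the lower end, and Rosa26 replicate 3 was among them. The log2 fold change at 6 months was -0.35 ± 0.15 (SE, edgeR adjusted p = 0.270), and that at 3 weeks -0.02 ± 0.15 (adjusted p = 0.989).

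Igfbp1, an acutely regulated binding protein that limits free IGF1, lies at chr11:7197782-7202546. It had 143, 198, 457, 559 and 253 CPM in the Rosa26 livers at 3 weeks and 234, 16.1, 106, 17.2 and 106 CPM in the HIRA livers. The later values were 48.7, 72.3, 40.2, 66.3 and 128 CPM with Rosa26 and 102, 74.0, 70.5, 59.7 and 12.7 CPM with HIRA. The 3-week controls were the highest group, with every liver above every 6-month control, and 4 of the 5 HIRA livers at 3 weeks were below all of the 3-week controls.

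The means of Igfbp1 at 3 weeks were 322 ± 178 CPM (SD, n = 5) with Rosa26 and 95.9 ± 89.4 CPM with HIRA, a log2 fold change of -1.75 ± 0.61 (SE) that did not pass (edgeR adjusted p = 0.330). The time difference in controls, -2.18 ± 0.62, did not pass with edgeR either (adjusted p = 0.120) and did with DESeq2 (adjusted p = 0.0328). The guide effect at 6 months was -0.16 ± 0.59 (adjusted p = 0.933), and 0.11 ± 0.57 without HIRA replicate 5. The difference between the guide effects, 1.59 ± 0.84, did not pass (adjusted p = 0.790). The clock genes that peak in the evening moved between the same groups. The sum of Dbp, Per1, Per2, Per3, Tef, Hlf, Ciart, Nr1d1 and Nr1d2 was 169 to 285 CPM in Rosa26 and 299.7 to 734 CPM in HIRA livers at 3 weeks, and 361 to 576 CPM in Rosa26 livers at 6 months. The sum of the 5 morning genes Arntl, Npas2, Clock, Cry1 and Nfil3 was 157 to 191, 50.9 to 139 and 50.6 to 128 CPM in these groups. At 3 weeks 5 of the 9 evening genes were higher with the Hira guide, Dbp by 4.55 ± 0.79 (adjusted p = 0.0251). The part of the clock in the level of Igfbp1 was not tested.

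Igfbp2, a binding protein that rises in fasting, lies at chr1:72824503-72852474. At 3 weeks it had 736, 295, 494, 468 and 495 CPM with Rosa26 and 776, 624, 532, 615 and 531 CPM with HIRA. The 6-month values were 319, 219, 143, 195 and 259 CPM with Rosa26 and 484, 356, 358, 377 and 295 CPM with HIRA. The means of both guides were lower at the later time, and at 6 months 4 of the 5 HIRA livers were above every control, the exception being replicate 5.

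In Rosa26 livers Igfbp2 fell between 3 weeks and 6 months with a log2 fold change of -1.13 ± 0.21 (SE), to 0.456 of the earlier level (edgeR adjusted p = 0.0227), with 1 liver of each group in the range of the other. The summed hepatocyte markers were 118930 to 166630 CPM at the earlier and 97659 to 140300 CPM at the later time. Alb made up most of this sum, with medians of 100730 and 82344 CPM. In the same comparison all 6 endothelial and all 6 biliary markers had negative log2 fold changes (medians -0.39 and -0.12), and all 6 lymphocyte markers had positive ones (median 0.77), with none past the test. Stellate markers were positive in 5 of 7 and macrophage markers in 4 of 6 (medians 0.10 and 0.26). The sums were 192 to 254 CPM at the earlier and 120.04 to 202 CPM at the later time for endothelial markers, 76.7 to 119.5 and 60.8 to 123 CPM for biliary markers, and 7.34 to 12.3 and 7.78 to 26.4 CPM for lymphocyte markers. The part of these cells in the fall was not tested. The adjusted p rose above 0.05, to 0.0819 at most, when Rosa26 3 weeks replicate 1, 3 or 4 or Rosa26 6 months replicate 3 or 4 was left out, and the log2 fold change stayed between -1.29 and -0.95. With the libraries of the contrast alone Igfbp2 was just lost (-1.13, adjusted p = 0.0505) and Igfbp1 passed in its place (-2.18, adjusted p = 0.0317). In HIRA livers the time difference was -0.72 ± 0.21 (edgeR adjusted p = 0.247), and there every 6-month liver was below every 3-week liver. The groups did not overlap, in either direction, for 1.47% of all genes. With the Hira guide Igfbp2 was 1.65 times the control level at 6 months, a log2 fold change of 0.72 ± 0.21 that missed the threshold with edgeR (adjusted p = 0.0874) and passed with DESeq2 (adjusted p = 0.0232). Without replicate 5 it was 0.80 ± 0.21 (adjusted p = 0.0599). At 3 weeks it was 0.31 ± 0.21 (adjusted p = 0.747), and the interaction was 0.41 ± 0.29 (adjusted p = 0.844).

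Igfbp4 (chr11:99041244-99054392), the most abundant member, was the steadiest. Its group means lay between 1357 ± 131 CPM (SD, n = 5; HIRA, 3 weeks) and 1482 ± 69.2 CPM (Rosa26, 6 months). The guide effect was -0.09 ± 0.10 (SE) at 3 weeks and -0.08 ± 0.10 at 6 months on the log2 scale (edgeR adjusted p = 0.873 and 0.757).

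Whether the guide acted differently at both times was tested for each member, and none passed the interaction test with edgeR or DESeq2. No gene of the 22867 did (0% of all genes), while 1514 (6.62%) were under an unadjusted p of 0.05 with edgeR, 1235 with DESeq2, and none of the 1514 was a member. Without HIRA 6 months replicate 5 no member passed either, and Ghr (-0.34 ± 0.16) and Igfbp1 (1.86 ± 0.78) were under an unadjusted p of 0.05 (edgeR adjusted p = 0.640 and 0.620), where 7.64% of all genes were. Igfbp1 was also under it when all libraries were used without the count filter.

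Across livers of the same group, Cish and Bcl6 moved in opposite directions. Of 6 pairs compared after centring log2 CPM on the group means, with a 2-sided permutation test over 100000 shuffles within groups, Cish and Bcl6 had r = -0.88 (permutation p = 0.0034, adjusted p = 0.0204) and rho = -0.68 (permutation p = 0.00616, adjusted p = 0.0188) over 20 libraries. Cish and Socs2 moved together, with r = 0.66 (permutation p = 0.00949, adjusted p = 0.0285) and rho = 0.61 (permutation p = 0.00627, adjusted p = 0.0188). Both relations rested in part on HIRA 6 months replicate 5. Without it r was -0.61 for Cish and Bcl6 (permutation adjusted p = 0.121) and 0.43 for Cish and Socs2 (adjusted p = 0.130), neither past the threshold. Without the pair of libraries farthest from the median of Cish, HIRA 6 months replicates 5 and 3, r was -0.72 and 0.49. The group means used there still included both libraries, so these values are not free of replicate 5. When replicate 5 was left out before centring, the farthest pair was HIRA 6 months replicate 1 and Rosa26 6 months replicate 2. Without that pair too, r was -0.36 and 0.69. The other 4 pairs, Socs2 with Bcl6, Igf1 with Socs2, Igf1 with Igfals and Igfbp1 with Igfbp2, had r from -0.38 to 0.38 and permutation adjusted p from 0.200 to 0.708. Without HIRA 6 months replicate 5, r was 0.48 for Igf1 with Socs2 and 0.50 for Igf1 with Igfals (permutation adjusted p = 0.121 for each), 0.14 for Socs2 with Bcl6 and 0.11 for Igfbp1 with Igfbp2 (adjusted p = 0.641 for each).

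**Figure D5:**
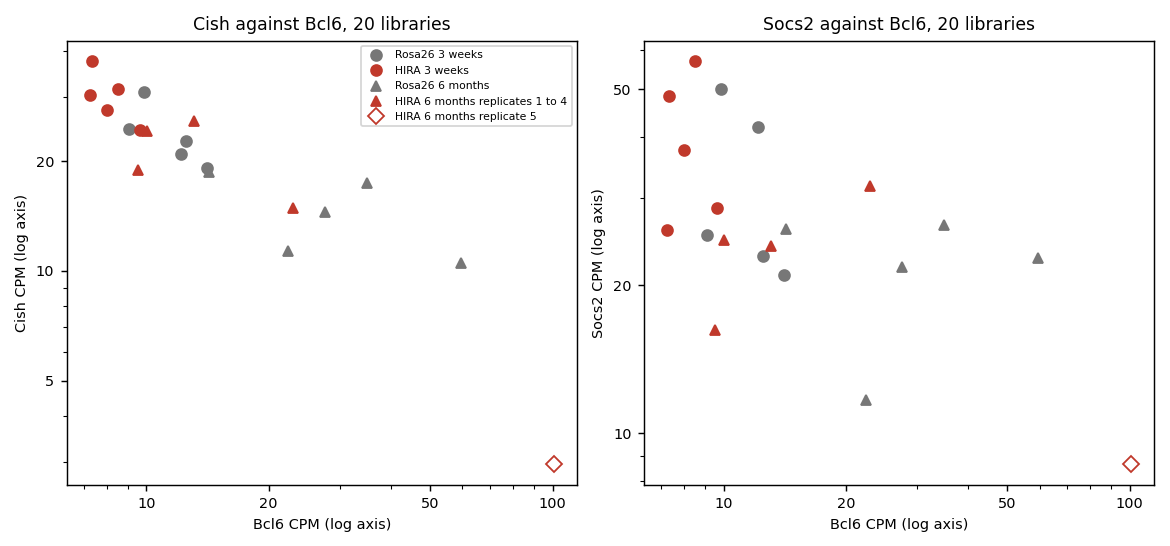
Cish (left) and Socs2 (right) against Bcl6 in the 20 libraries, in CPM on log axes. Circles are 3-week and triangles 6-month livers (grey Rosa26, red HIRA), and the open diamond is HIRA 6 months replicate 5, at 101 CPM of Bcl6, 2.95 CPM of Cish and 8.64 CPM of Socs2.

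The library with the Y-linked counts stood apart from the other 4 HIRA livers at 6 months in several members. Its difference from their mean in log2 CPM was 2.95 for Bcl6, -2.76 for Cish, -2.56 for Igfbp1, -1.43 for Socs2 and 0.57 for Ghr. The differences in Stat5b, Igfals, Igfbp4, Igf1 and Igfbp2 were from -0.41 to 0.34. In the same library the female-biased genes Cux2, Sult2a1 and A1bg had 10, 6 and 22 counts, where the lowest of the other libraries had 526, 1353 and 1161. These are values of 1 library. The only test of them was a gap test within the group, given below, which flagged Cish and Igfbp1. The mouse's sex cannot be told apart from its other circumstances.

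Genes that growth hormone is known to set differently in the sexes were compared with and without this library. Among 16 male-biased genes tested, 6 were higher with the Hira guide at 6 months (C6, Cyp2d9, Cyp4a12a, Cyp4a12b, Elovl3 and Mup20), and the median log2 fold change was 2.89. Without HIRA replicate 5 only Mup20, a urinary protein, was higher among 15 tested (1.19, edgeR adjusted p = 0.0383), and the median was -0.15. Of 21 female-biased genes none passed with all libraries, with a median of -0.50, and the cytochrome P450 gene Cyp2c40 was lower without replicate 5 (-1.12, adjusted p = 0.0219), with a median of -0.18. At 3 weeks none of either list passed in the fit of all libraries (medians 0.17 and 0.10), and Cyp2d9, a male-biased P450, was higher when HIRA 6 months replicate 5 was left out of the fit (1.32, adjusted p = 0.0245). Between times in Rosa26 livers none of either list passed with all libraries. Without that library 4 female-biased genes were higher at 6 months, A1bg, Cyp3a41b, Hao2 and Sult2a1, with log2 fold changes of 1.24 to 3.51, and the male-biased transporter Slco1a1 was lower (-2.34, adjusted p = 0.0154). In HIRA livers Cyp2d9 was lower at 6 months without it (-1.53, adjusted p = 0.0222).

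Among 43 other genes of growth hormone and IGF signalling, of which 42 were tested, none passed in any of the comparisons with edgeR and all 20 libraries. These comprised 7 receptors and receptor kinases, 13 STATs and adaptors, 8 inhibitors, 5 ligand and binding protein genes, 4 proteases and their inhibitors and 6 liver transcription factors. The median log2 fold change of this list was 0.03 at 3 weeks, 0.004 at 6 months and -0.06 between times in Rosa26 livers. Stat5a, the close relative of Stat5b, had a range of 24.2 to 31.6 CPM with Rosa26 and 14.1 to 22.8 CPM with HIRA at 3 weeks, which did not overlap. Its log2 fold change of -0.66 ± 0.14 (SE) just missed the threshold (adjusted p = 0.0522), passed without HIRA 6 months replicate 5 (adjusted p = 0.0414), and was -0.09 ± 0.14 at 6 months (adjusted p = 0.815). Without that library, Igfbp5, a binding protein also made by stromal cells, was higher at 6 months than at 3 weeks in Rosa26 livers (1.47, adjusted p = 0.0420, and 0.0750 with all libraries). The leptin receptor gene Lepr, whose kinase is also JAK2, was lower there (-1.96, adjusted p = 0.0182, and 0.0651 with all libraries). Igf2, the fetal ligand, had 0 to 5 counts in every library.

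Of 12 genes that respond to insulin and FOXO1, none passed with all libraries in any comparison. Their median log2 fold change was -0.10 at 3 weeks, 0.13 at 6 months and -0.56 between times in Rosa26 livers. G6pc, which releases glucose from the liver, was lower at 6 months than at 3 weeks in Rosa26 livers when HIRA replicate 5 was left out (-1.49, edgeR adjusted p = 0.0386, and 0.0590 with all libraries).

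The genes whose pattern over the 20 libraries was most like that of a member were found for the 4 most variable members among 12902 genes with a mean of at least 1 CPM, by the root mean square difference of centred log2 CPM. For Igfbp1 they were Irs2 (0.93), Gadd45g (0.97) and Irf2bp2 (1.00), against an SD of 1.48 of Igfbp1 itself. For Bcl6, with an SD of 1.03, they were Cebpe (0.62), Dmrta1 (0.64) and Wfdc2 (0.66). For Cish, with an SD of 0.79, they were Fmo2 (0.44), Tent5a (0.47) and Car2 (0.47), and for Socs2, with an SD of 0.66, they were Fmo2 (0.43), Cyp2c68 (0.44) and Sptb (0.44). For Igfbp1 the same 3 genes led without HIRA 6 months replicate 5 (0.86 to 0.91), and for Bcl6 2 of the 3, behind Zfp773 (0.43). For Cish and Socs2 none of the 3 remained. The genes most like Cish were then C1qtnf12 (0.28), Zpr1 (0.28) and Ifrd1 (0.29), and those most like Socs2 were Rapgef4 (0.34), B230206H07Rik (0.36) and Zpr1 (0.36). Fmo2, one of the female-biased genes, had 8.69 CPM in that library and at least 27.0 CPM in the 3 other groups. Irs2, which links the insulin receptor to its kinases, had medians of 59.0 CPM with Rosa26 and 28.4 CPM with HIRA at 3 weeks, and 38.5 and 23.7 CPM at 6 months. Its guide effect was -0.93 ± 0.26 (SE) at 3 weeks and -0.65 ± 0.26 at 6 months, and neither passed (edgeR adjusted p = 0.176 and 0.222).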

How the data were processed

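Poly(A) RNA from 20 livers was sequenced from directional libraries. The authors aligned reads to mm10 (GRCm38) and deposited a table of unnormalized whole-number counts for each gene. The authors also deposited FPKM values. Their methods name STAR and HOMER, and the submitters' processing notes name STAR, HTSeq and Cufflinks; which tool made which table is not given in the sources used here, nor is the use of strand.

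Here the counts were tested with edgeR 4.0.16 (TMM, quasi-likelihood, 1 fit of all 20 libraries with a mean per group) on genes whose counts over all libraries reached 10. P-values were adjusted by Benjamini-Hochberg over all 22867 genes tested. The thresholds, an adjusted p under 0.05 and a log2 fold change over 1 in size, are those of the study. The SE is the log2 fold change divided by the root of F. CPM use TMM-scaled totals, and log2 CPM have a prior count of 2. FPKM served for levels between genes and, as log2(FPKM + 1) with limma 3.58.1, as an alternative. Other alternatives were DESeq2 1.42.0, RLE scaling, no filter, a replicate block, the libraries of the contrast alone and leaving out each library. Other tools were R 4.3.3, matplotlib 3.10.9, scipy 1.17.1, numpy 2.4.6 and pandas 2.3.3 in Python 3.11.15.

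Groups and replicate numbers came from the sample titles. The series describes 5 independent replicates per group. The labels name no batch or time of day. No replicate pair agreed within sampling noise. Depth was 19916430 to 24079736 counts per library, and the lowest member value was 58 counts. Coordinates are 1-based, from GENCODE M21 (GRCm38), which held 98.5% of the gene identifiers; promoter windows are from RefSeq (GRCm38.p6). The members, lists and pairs were chosen with earlier results of these data known. Named genes are the 10 members, listed genes with an adjusted p under 0.05 in any comparison with or without HIRA 6 months replicate 5, the 3 genes most like each of the 4 most variable members, and Hira, Xist, the Y-linked genes, Cyp4a12a and Mup20. Dbp stands for the evening genes. Stat5a, Igf2, Cux2, Sult2a1 and A1bg were also named with values after these were seen. Spread, order of levels, marker sums and likeness without HIRA 6 months replicate 5 were added after seeing the data.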

Additional observations from a re-analysis of the deposited data

Results flagged for a closer look

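Within each group of 5 libraries, the highest and the lowest log2 CPM of each member were compared with the others by Dixon's gap test (critical value 0.71). Of 40 sets of a gene and a group, 3 were past it, where chance flags about 1 in 20. Cish in HIRA 6 months replicate 5 had a log2 CPM of 1.60 (2.95 CPM, 58 counts), against 14.9 to 25.8 CPM in the other 4 livers of its group. Igfbp1 in the same library had a log2 CPM of 3.67 (12.7 CPM, 249 counts), against 59.7 to 102 CPM in the others. This is the library with Y-linked counts described above. Socs2 in Rosa26 6 months replicate 3 had a log2 CPM of 3.56 (11.7 CPM, 271 counts), against 21.8 to 26.5 CPM in the others.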

How the results depend on the processing

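Calls of single members turned on few libraries or on the tool. For the Hira guide at 6 months, 1 member had an adjusted p under 0.05 with edgeR, where 1.31% of all genes did. It was 2 with DESeq2, 2 with the replicate block and 3 with the block when HIRA replicate 5 was left out (1 of them past both thresholds). It was 0 without the count filter, with log2(FPKM + 1) or with the libraries of the contrast alone. In these settings 4, 2 and 3 members were under an unadjusted p of 0.05, as were 3791, 3090 and 2629 of all genes. All genes at an adjusted p under 0.05 were not counted for the alternatives in this section, so the member counts at that threshold have no background. Igfbp2 was past the threshold with DESeq2 and with the replicate block (0.74 ± 0.15, edgeR adjusted p = 0.0301, and 0.0148 without HIRA replicate 5). Igf1 stayed past it with the block (-0.47 ± 0.11, edgeR adjusted p = 0.0446). For time in Rosa26 livers 1 member (Igfbp2) passed with edgeR and 2 with DESeq2, past both thresholds in each case, and with the libraries of the contrast alone 1 other (Igfbp1) passed; in HIRA livers 0 passed with edgeR and 1 with DESeq2. Genes past both thresholds at 3 weeks numbered 26, but 64 with DESeq2, 11 with FPKM and 61 with the libraries of the contrast alone. At 6 months they numbered 76, but 127, 18 and 0 (2629 genes at an unadjusted p under 0.05), and 115 with the replicate block without HIRA replicate 5. For time in Rosa26 livers they numbered 37, but 157, 9 and 67, and 61 with the replicate block. For time in HIRA livers they numbered 13, but 74, 3 and 8, 26 with the replicate block and 25 without the filter. Signs turned with FPKM for Igfals at 3 weeks (0.012), Igf1 with time in Rosa26 livers (-0.0032) and the interaction of Bcl6 (-0.051), with DESeq2 and RLE for the interaction of Igfbp4 (-0.0045 and -0.0044), and with the replicate block without HIRA replicate 5 for Socs2 (0.20) and Igfbp1 (0.18) at 6 months. The cause was not tested. Leaving out each library gave, at 3 weeks, -0.017 to 0.10 for Ghr, -0.12 to 0.13 for Igfals and 3 to 43 genes past both thresholds. At 6 months it gave -1.18 to 0.34 for Bcl6, -0.40 to 0.17 for Igfbp1, -0.25 to 0.15 for Socs2, 18 to 109 genes, and 0 to 2 members at an adjusted p under 0.05 with 0 to 1 past both. For time in Rosa26 livers it gave -0.060 to 0.19 for Igfals, 1 to 83 genes and 0 to 2 members by either rule, and in HIRA livers -0.18 to 0.038 for Ghr, -0.86 to 0.058 for Igfbp1 and 5 to 25 genes. For the interaction it gave -0.68 to 0.84 for Bcl6, -0.28 to 0.18 for Cish, -0.049 to 0.060 for Igfbp4, -0.039 to 0.10 for Stat5b and 0 to 1 genes. For the pairs without HIRA 6 months replicate 5, r was -0.61 (Cish and Bcl6), 0.43 (Cish and Socs2) and 0.14 (Socs2 and Bcl6). The replicate numbers were not taken as pairing the livers, since only 14 of the 30 same-numbered pairs of different groups had a correlation over 0.1 (-0.309 to 0.335, median 0.079, against -0.036 for other pairs). Of 20 libraries, 10 correlated best with their own number, a hint from the data and not the design. Every scaling left the median log2 fold change of all genes within 0.1 of 0. The lowest count of a member was 58, for Cish in HIRA 6 months replicate 5, the value with the widest counting error. Livers of 1 group differed beyond sampling noise.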
